A study of Mus musculus with 8 samples.

Results

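The cytochrome P450 enzymes of the mouse liver were read out in KK-Ay mice fed persimmon peel (PP) extract or a control diet. The members were every gene whose symbol on the array annotation starts with Cyp and a digit, apart from 12 P450 genes left out by the rule that set the group (Cyp51, Cyp4a14, Cyp4a31, Cyp7a1, Cyp8b1, Cyp27a1, Cyp2b9, Cyp2b10, Cyp2b13, Cyp3a11, Cyp2e1 and Cyp1a2). The rule used no measured diet effect. It gave 61 genes of the 18193 genes with a probe set of their own, and 79 of the 45037 probe sets tested. Of the 61, 2 are annotated as transcribed pseudogenes (Cyp2d13 and Cyp4f41-ps). Each gene was represented by the probe set with the highest mean signal over the 8 arrays. A further 4 P450 probe sets carried several gene symbols, so that Cyp4a10, Cyp2a4 and Cyp2a5 have no value here, and neither has Cyp19a1.

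KK-Ay mice are an obese model of type 2 diabetes that carries the yellow allele of the agouti gene. All mice were males and were 14 weeks old at sampling. For 8 weeks the PD mice had eaten the AIN-93G diet to which PP extract had been added at 1 g per kg, and the CD mice had eaten AIN-93G without it. Liver RNA of 4 PD and 4 CD mice was hybridized to Affymetrix GeneChip mouse genome arrays, with 1 array per mouse. The livers had been picked from mice whose plasma ketone bodies lay near their group's average, so they are no random sample of each diet. Values are log2 signals of the model-based expression index. The signal of a probe set depends on its oligonucleotides as well as on the RNA, so that signals of 2 genes are given side by side as signals and not as amounts of RNA.

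P450 enzymes are heme proteins that insert an oxygen atom into their substrate and take the electrons for it from a reductase in the endoplasmic reticulum or from ferredoxin in mitochondria. The members of families 1 to 3 mainly clear drugs, toxins and steroids, those of family 4 oxidize fatty acids and eicosanoids at the end of the chain, and the others make or break down sterols, bile acids, steroid hormones, vitamin D and retinoic acid. In the liver most of them are hepatocyte enzymes, and many are most abundant around the central vein. Several mouse P450 genes differ between the sexes under the pattern of growth hormone release. Closely related copies lie side by side in clusters, so that signals may be shared between near-identical copies. For 7 members the probe set is of a kind that can detect several transcripts, either of the same gene or of related genes.

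Hepatocyte markers stood among the highest signals on the arrays (Alb, the serum albumin gene, at 14.73), and markers of adrenal cortex (Star, 7.21) and kidney tubule (Umod, 6.74) lay near the array median, which was between 7.09 and 7.16. Correlations between arrays were between 0.991 and 0.996. Among 11 lists of cell type markers, the rank product called 1 gene, Col3a1, a fibrillar collagen, higher in PD mice (difference 0.37), a call that was lost without PD replicate 2 (0.33), 3 (0.37) or 4 (0.36) or CD replicate 2 (0.25). Over all probe sets 0.200% were called higher. The pericentral list, which shares Cyp2e1 and Cyp1a2 with the left-out P450 genes, was lower on average in 7 of 8 markers (median difference −0.08), with summed signals from 81.3 to 83.4 in PD mice and from 82.3 to 84.6 in CD mice. The periportal list was lower in 5 of 6 markers (median −0.06), or 4 of 6 with the arrays centred on their medians, with sums from 68.5 to 70.5 in PD mice and from 69.5 to 70.9 in CD mice. The list of stellate cells and fibroblasts was higher in 5 of 8 markers (median 0.11), with sums from 66.8 to 67.6 in PD mice and from 65.0 to 67.6 in CD mice, and that of neutrophils lower in 3 of 4 (median −0.09), with sums from 29.6 to 30.1 in PD mice and from 29.8 to 30.5 in CD mice. The part of these shifts in the P450 values was not tested, and in whole liver fewer cells of a type and less RNA per cell cannot be told apart.

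No P450 member was called between the diets. This holds for the 61 members only. The paper lists Cyp4a10, Cyp4a11 and Cyp4a14 as upregulated by PP extract, and none of them is among the members. The rank product, which ranks the ratio of PD to CD signal in the 16 pairs of arrays, called 0 of the 61 members upregulated and 0 downregulated at a false discovery rate (FDR) under 0.1, where 0.200% of all probe sets were called higher and 0.260% lower. The lowest FDR of a member was 0.173 for an upregulation (Cyp26a1) and 0.464 for a downregulation (Cyp3a13). limma, which sets each difference against the spread between mice, called 0 members at an adjusted p under 0.1 and 0 of all probe sets (lowest adjusted p 0.998). At an unadjusted p under 0.05 limma found 2 members, Cyp3a13 and Cyp46a1, against 4.24% of all genes. Cyp46a1 was singled out after its values were seen. The methods' t-test gave 1 member at an unadjusted p under 0.05, against 4.05% of all genes, and 0 after Benjamini-Hochberg adjustment.

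The differences of the members were about as large as those of all genes. Of the 61 members, 26 were higher and 35 lower on average in PD mice, and 53.5% of all genes were lower. This split followed the scaling: with the arrays centred on their medians 31 members were higher and 30 lower, and with quantile normalization 30 were higher and 31 lower. Members below a signal of 8 went from 14 higher and 17 lower to 18 and 13 with either scaling. Above a signal of 10, 8 were higher and 15 lower, also with quantile normalization, and 9 and 14 with centred arrays. Of all genes above 10, 46.3% were lower. Related members are not independent, and these counts have no test. The median difference (PD minus CD, log2) was −0.01 over the members and −0.01 over all genes, and the median size of the difference was 0.04 in both. Differences smaller than 0.1 were found for 51 members, or 83.6%, and for 84.6% of all genes. The lowest difference was −0.21 (Cyp3a13) and the highest 0.21 (Cyp26a1). The 95% intervals of limma bound these differences in signal. For 60 of 61 members the interval lay within 1.5-fold in both directions, against 98.4% of all genes. For the 20 members below the array-wide median signal (7.13), a narrow interval of the signal need not bound a change in RNA. How closely the brightest signals follow the RNA was not tested. Of the members with a mean signal above 10, 23 of 23 had such an interval, against 96.9% of all genes above 10. Cyp26a1 was the exception, with an interval from 0.729-fold to 1.84-fold.

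**Figure D1:**
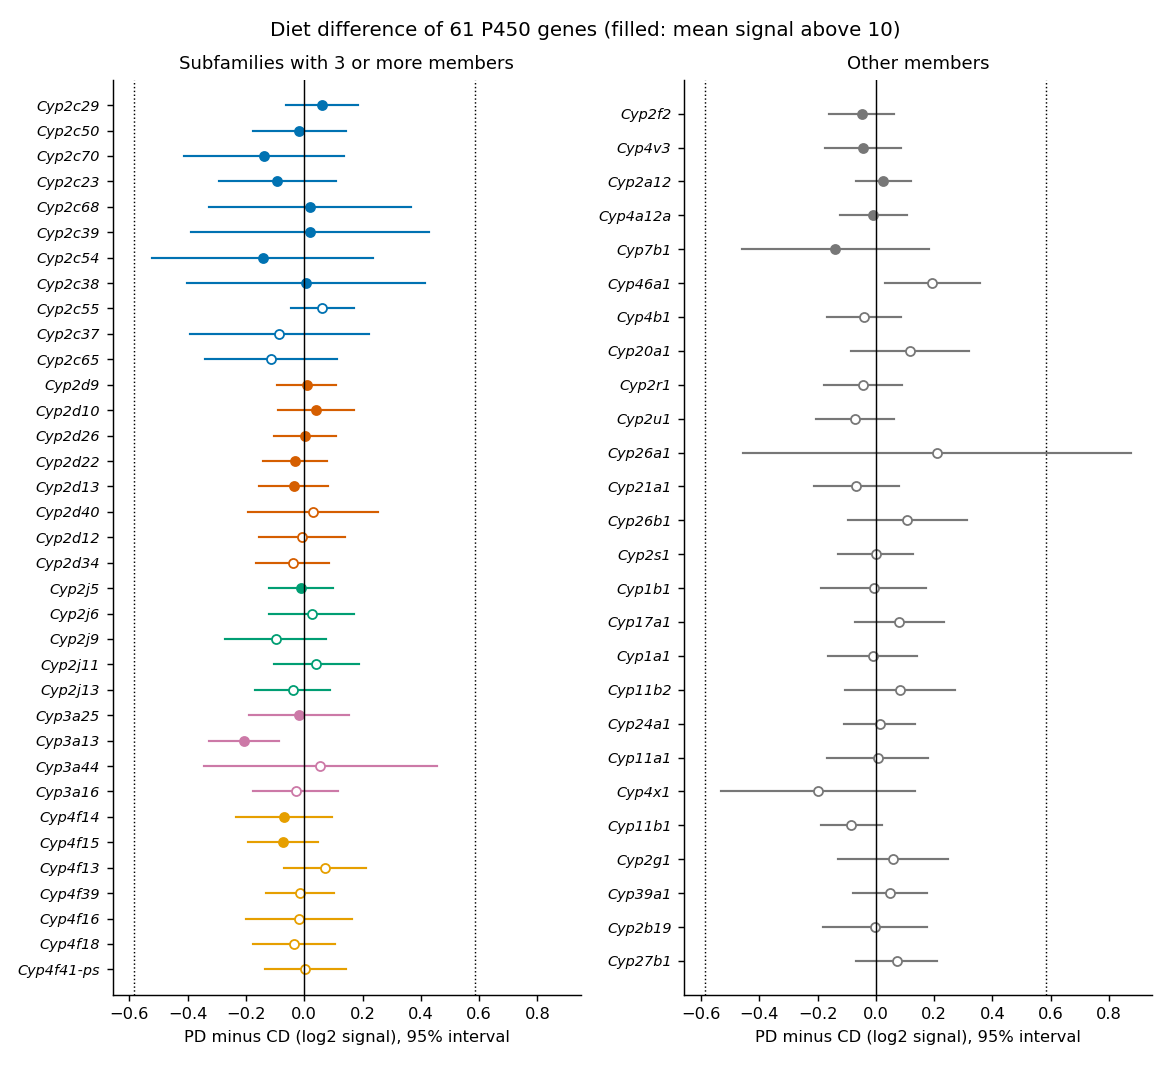
Difference between PD and CD mice in log2 signal for the 61 P450 genes (points) with the 95% interval of limma (lines), n = 4 PD and 4 CD mice. Dotted lines mark 1.5-fold, filled points are genes with a mean signal above 10, and genes run from high to low signal within each subfamily. The intervals of 60 genes stay between the dotted lines, and that of Cyp26a1 crosses one.

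The signals of the members ran from 5.85 (Cyp3a16) to 13.69 (Cyp2f2). Of the 61 members, 30 had a mean signal above the upper quartile of all probe sets (8.03), 20 lay below the array-wide median (7.13) and 11 in between. The 6 members above 13 were Cyp2f2 (13.69), Cyp2c29 (13.67), Cyp3a25 (13.55), Cyp2d9 (13.53), Cyp2d10 (13.31) and Cyp2d26 (13.23), among 127 genes above that signal. The 9 markers of adrenal cortex, gonad and kidney tubule that are not P450 genes, from tissues that were not sampled, had signals between 6.36 and 7.34.

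The subfamilies with 3 or more members had different signals and small diet differences. Cyp2c (11 genes) had a median signal of 11.12, Cyp2d (8 genes) 10.38, Cyp3a (4 genes) 9.56, Cyp4f (7 genes) 7.88 and Cyp2j (5 genes) 7.59. Their median diet differences lay between −0.02 and −0.00. With single mice left out, the median of Cyp2c ran from −0.10 (without CD replicate 4) to 0.04 (without CD replicate 1) and that of Cyp3a from −0.10 (without CD replicate 4) to −0.00 (without CD replicate 2). The differences ran from −0.14 to 0.06 in Cyp2c, from −0.04 to 0.04 in Cyp2d, from −0.21 to 0.05 in Cyp3a, from −0.07 to 0.07 in Cyp4f and from −0.10 to 0.04 in Cyp2j. The number of members higher and lower in PD mice was 5 and 6 in Cyp2c, 4 and 4 in Cyp2d (5 and 3 with either other scaling), 1 and 3 in Cyp3a, 2 and 5 in Cyp4f and 2 and 3 in Cyp2j.

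The Cyp2c genes lie on chromosome 19, most of them side by side, and encode epoxygenases of arachidonic acid and hydroxylases of steroids and retinoids. Of the 11 members, 8 had a signal above the upper quartile. Cyp2c29, the brightest of them and an epoxygenase, gave 13.71, 13.79, 13.67 and 13.63 in PD mice and 13.65, 13.75, 13.56 and 13.59 in CD mice (difference 0.06, standard error 0.06). These values overlap, and they lie within a narrow range in both diets. Cyp2c54, the member with the lowest difference (−0.14, standard error 0.17), gave 11.01, 11.25, 10.72 and 10.94 in PD mice and 11.66, 11.14, 10.89 and 10.79 in CD mice. A single mouse, CD 1, lay far above the other 7, and without it the difference was 0.04. Cyp2c70, the enzyme that makes muricholic acids in rodents, averaged 12.65 ± 0.25 in PD mice and 12.79 ± 0.19 in CD mice (SD, n = 4 each), a difference of −0.14 with a standard error of 0.12. Cyp2c55, known from the colon, was the member with the highest difference (0.06, standard error 0.05) at a signal of only 7.63.

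Several bright Cyp2c genes varied widely between mice on the same diet. Cyp2c38 gave 10.01, 9.84, 10.10 and 10.61 in PD mice and 10.35, 10.20, 10.36 and 9.62 in CD mice. PD 4 was the highest mouse and CD 4 the lowest, and the groups overlap over nearly their whole range (difference 0.01, standard error 0.18). Cyp2c39, a hydroxylase of retinoic acid, gave 11.21, 10.63, 11.11 and 11.56 in PD mice and 11.26, 10.999, 11.41 and 10.76 in CD mice. Here too PD 4 was the highest mouse, and PD 2 and CD 4 were the lowest (difference 0.02, standard error 0.18). In the RefSeq table Cyp2c38 and Cyp2c39 are neighbours. Over the 8 mice their signals gave a Pearson's r of 0.89 (permutation p = 0.0041, adjusted p = 0.0875 over the 43 pairs of bright genes within subfamilies) and a Spearman's rho of 0.88 (permutation p = 0.0072, adjusted p = 0.156). Without the 2 mice farthest from the median of Cyp2c38, r was 0.81. Taken as deviations from each diet's mean, r was 0.89.

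Cyp2c50 and Cyp2c54, both epoxygenases and neighbours in the same table, were the 1 pair of the 43 whose r had an adjusted p under 0.05. Their r was 0.86 (permutation p = 0.0011, adjusted p = 0.0491). Their rho of 0.93 was not under 0.05 after adjustment (permutation p = 0.0022, adjusted p = 0.096). Without the 2 mice farthest from the median of Cyp2c50, r was 0.78. Cyp2c50 gave 13.001, 13.05, 12.82 and 12.90 in PD mice and 13.07, 13.06, 12.90 and 12.81 in CD mice, with CD 1 and CD 2 the highest and CD 4 the lowest. The 2 groups of 4 mice are too small for a correlation within each. Probes of related genes can bind each other's RNA, and its part in these correlations was not tested. The pairs were chosen for naming after their values were seen.

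The promoters of Cyp2c38 and Cyp2c39 are shown beside those of a pair of bright Cyp2d genes. They come from the RefSeq tables of GRCm38.p6, where 43 of the 61 members had an entry. Each line gives the 250 bases before the annotated start, in the direction of the gene. Capitals mark TATAAA on either strand, which reads TTTATA on the opposite one.
Cyp2c38: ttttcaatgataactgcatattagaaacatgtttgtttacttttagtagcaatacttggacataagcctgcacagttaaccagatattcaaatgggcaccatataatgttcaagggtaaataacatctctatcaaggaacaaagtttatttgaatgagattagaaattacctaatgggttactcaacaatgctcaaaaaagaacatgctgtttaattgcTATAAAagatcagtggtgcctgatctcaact
Cyp2c39: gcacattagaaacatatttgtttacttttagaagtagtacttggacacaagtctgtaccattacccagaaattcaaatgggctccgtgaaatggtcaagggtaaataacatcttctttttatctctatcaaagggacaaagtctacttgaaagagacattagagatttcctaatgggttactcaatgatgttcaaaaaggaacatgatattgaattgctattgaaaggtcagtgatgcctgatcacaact
Cyp2d9: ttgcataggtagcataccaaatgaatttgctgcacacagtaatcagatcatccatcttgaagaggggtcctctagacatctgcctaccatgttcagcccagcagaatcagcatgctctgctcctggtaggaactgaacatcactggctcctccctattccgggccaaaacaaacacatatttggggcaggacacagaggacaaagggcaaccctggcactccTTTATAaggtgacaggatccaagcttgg
Cyp2d10: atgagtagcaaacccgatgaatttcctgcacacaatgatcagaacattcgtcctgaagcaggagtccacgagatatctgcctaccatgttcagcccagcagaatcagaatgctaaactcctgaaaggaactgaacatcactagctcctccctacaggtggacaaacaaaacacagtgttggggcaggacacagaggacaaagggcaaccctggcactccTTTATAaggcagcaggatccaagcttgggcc
The Cyp2c38 sequence is at chr19:39463076-39463325 (minus strand), Cyp2c39 at chr19:39347096-39347345 (plus strand), Cyp2d9 at chr15:82452127-82452376 (plus strand) and Cyp2d10 at chr15:82407195-82407444 (minus strand). Over the whole windows of the table, which run to 50 bases after the start, Cyp2c38 and Cyp2c39 were identical at 75.8% of aligned positions and Cyp2d9 and Cyp2d10 at 82.8%. The motif begins 31 bases before the start in Cyp2c38 and Cyp2d10 and 28 bases before it in Cyp2d9, and these letters are not in the Cyp2c39 window. TATAAA was found on either strand in the windows of 16 of the 43 members (37.2%) and in 14.2% of all 27025 promoters. CAAAGTCCA, a core of sites bound by the hepatocyte factor HNF4A, was found in 4 (9.30%: Cyp2c65, Cyp2c68, Cyp2c70 and Cyp3a16), against 0.477% of all promoters, and the related CAAAGGTCA in 1 (Cyp3a25), against 0.466%. Of those with CAAAGTCCA, Cyp2c65 (signal 6.77) and Cyp3a16 (5.85) lay below the array median. TTGCNNAA, a pattern for C/EBP proteins, was found in 6 (14.0%, against 10.8%) and GCGTG, the core bound by the aryl hydrocarbon receptor, in 12 (27.9%, against 32.5%). All motifs were searched on both strands, and none contains another. Promoters of related members can be alike, so the shares over the 43 members do not rest on independent promoters. TTATGTAA, the site of D-box factors, was found in 0 of the 43, against 0.955% of all promoters.

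**Figure D2:**
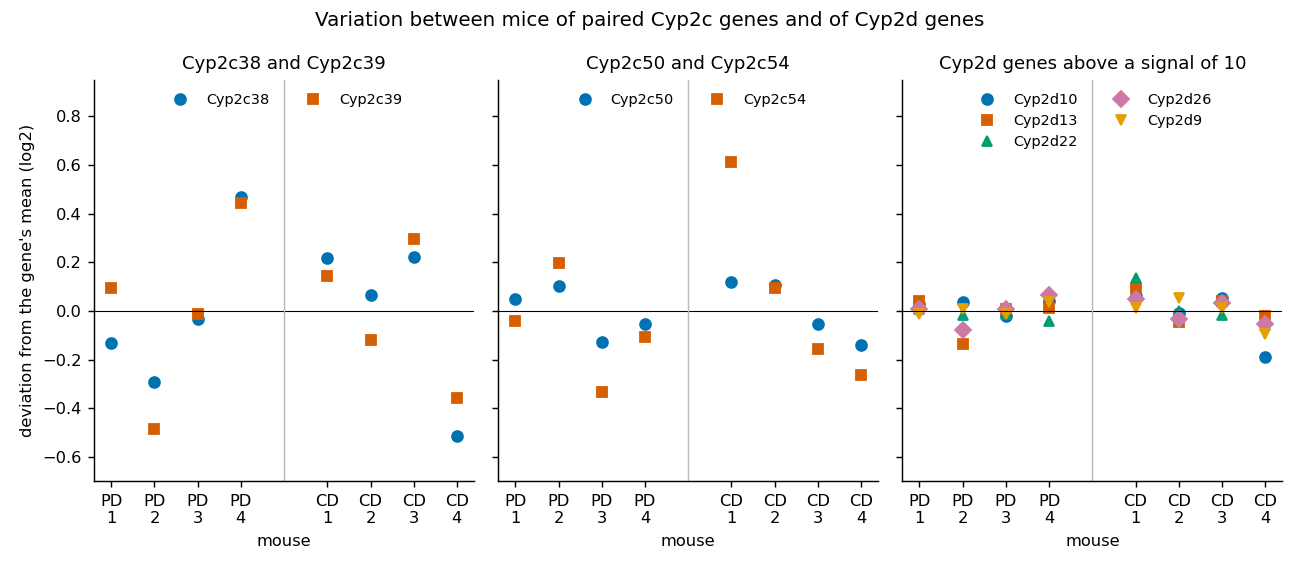
Deviation of each mouse from the gene's mean over the 8 mice (log2), PD mice 1 to 4 left and CD mice 1 to 4 right in each panel, for Cyp2c38 and Cyp2c39, for Cyp2c50 and Cyp2c54, and for the 5 Cyp2d genes with a mean signal above 10. Cyp2c38 and Cyp2c39 are both highest in PD 4 and low in PD 2 and CD 4, Cyp2c54 is highest in CD 1, and the pooled SDs of the Cyp2d genes are between 0.05 and 0.08.

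Of the 8 Cyp2d genes, relatives of the human drug-metabolizing enzyme CYP2D6, 5 were bright, with pooled SDs between mice from 0.05 to 0.08. Among these 5 is Cyp2d13, annotated as a transcribed pseudogene. Cyp2d9, a testosterone hydroxylase of male mouse liver, gave 13.52, 13.54, 13.51 and 13.56 in PD mice and 13.54, 13.58, 13.54 and 13.43 in CD mice (difference 0.01, standard error 0.05). Its 8 values lay close together in both diets. Cyp2d10, which had the highest difference of the subfamily, averaged 13.34 ± 0.03 in PD mice and 13.29 ± 0.12 in CD mice (SD, n = 4 each), with CD 4 the lowest mouse for both genes. Over the 8 mice Cyp2d9 and Cyp2d10 gave r = 0.80 (permutation p = 0.0641, adjusted p = 0.499) and rho = 0.57 (permutation p = 0.151, adjusted p = 0.497). Without the 2 mice farthest from the median r was −0.56, so this relation rests on those mice. Cyp2d22 averaged 10.40 ± 0.02 in PD mice and 10.43 ± 0.08 in CD mice, and a second probe set gave a difference of 0.05 where this one gave −0.03. Cyp2d34, with the lowest difference (−0.04), and Cyp2d40, with the widest spread of the subfamily (SD 0.18), were dim, at 6.73 and 7.42.

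Spread between mice on the same diet, pooled over both diets, had a median SD of 0.10 over the members and 0.08 over all genes. Among the members above a signal of 10 it was 0.08, and 0.08 over all genes above 10. In this class 6 of 23 members lay above the 90th percentile of all genes (0.196): Cyp2c39 (0.34), Cyp2c38 (0.34), Cyp2c54 (0.32), Cyp2c68 (0.29), Cyp7b1 (0.26) and Cyp2c70 (0.22). So 5 of these 6 were Cyp2c genes. The 8 bright Cyp2c genes had SDs from 0.08 to 0.34 (median 0.25), and the 5 bright Cyp2d genes from 0.05 to 0.08. Averaged over the 8 bright Cyp2c genes, the deviations of single mice were 0.01, −0.03, −0.03 and −0.02 in PD mice and 0.23, 0.06, −0.02 and −0.20 in CD mice. Single genes went opposite ways within this average, as in PD 4, where Cyp2c38 and Cyp2c39 lay above their means over the 8 mice and Cyp2c68 and Cyp2c70 below theirs. The 7 macrophage markers deviated on average by 0.08, 0.00, −0.03 and −0.02 in PD mice and by −0.19, −0.25, 0.19 and 0.22 in CD mice, and their part in the Cyp2c values was not tested. Below a signal of 8, 7 of 31 members exceeded the 90th percentile of their class (0.147), and 0 of 7 did so between 8 and 10.

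**Figure D3:**
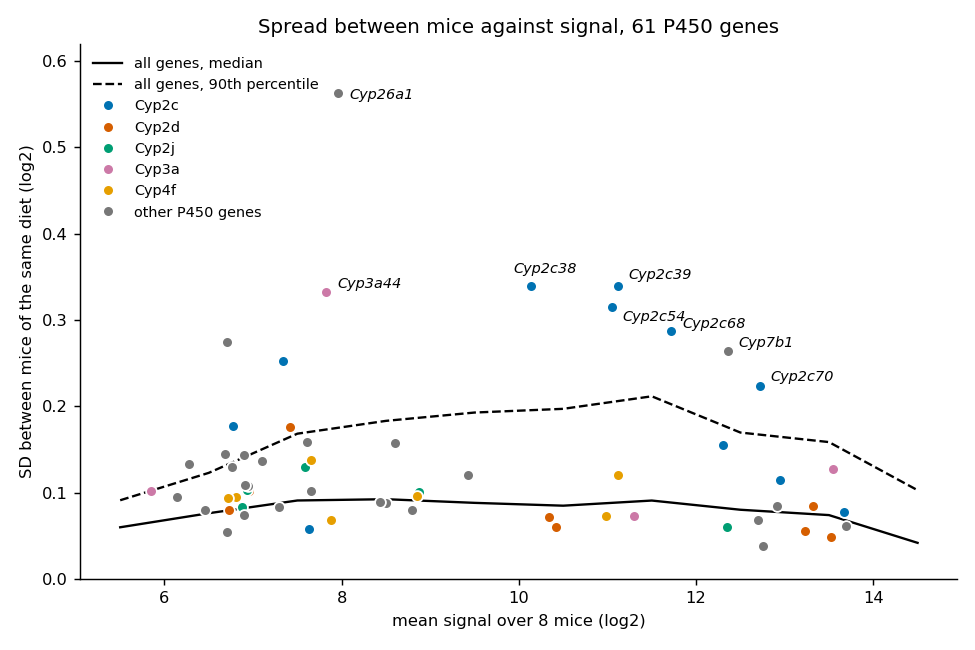
SD between mice of the same diet (log2, pooled over PD and CD mice, n = 4 each) against mean signal (log2) for the 61 P450 genes, coloured by subfamily, with the median and the 90th percentile of all genes in classes of 1 log2 unit as lines. Cyp26a1 has the widest spread, and Cyp2c38, Cyp2c39, Cyp2c54, Cyp2c68, Cyp2c70 and Cyp7b1 lie above the dashed line among the bright genes.

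Cyp3a13 was the 1 member of 61 (1.64%) whose PD and CD values did not overlap, against 2.15% of all genes in either direction, 1.03% with PD lower and 1.12% with PD higher. Cyp3a13 is a CYP3A enzyme known for high levels in the intestine as well as in liver. Its signals were 11.26, 11.16, 11.12 and 11.23 in PD mice and 11.41, 11.30, 11.40 and 11.49 in CD mice, so that the highest PD mouse lay just below the lowest CD mouse. The difference was −0.21 (standard error 0.05, 95% interval −0.33 to −0.09), a ratio of 0.867, and ran from −0.24 to −0.18 when single mice were left out. The exact permutation test (two-sided) gave p = 0.0286, the smallest that 4 mice against 4 allow, the adjusted p of limma over all probe sets was 0.998, and the rank product did not call it. As the gene is named for this separation, the exact test is a description of it.

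The other Cyp3a genes did not show this separation. Cyp3a25, the brightest Cyp3a member, gave 13.64, 13.44, 13.53 and 13.54 in PD mice and 13.59, 13.56, 13.74 and 13.34 in CD mice (difference −0.02, standard error 0.08), with CD 4 the lowest mouse and CD 3 the highest. Cyp3a44, a form of female liver, gave 7.99, 7.94, 7.53 and 7.95 in PD mice and 8.17, 8.10, 7.62 and 7.29 in CD mice, and its spread was wide in both diets (SD 0.33). Cyp3a16, a fetal form, lay at 5.85, below the array median, with a difference of −0.03. The promoter window of Cyp3a16 was identical to that of Cyp3a44 at 92.9% of aligned positions. The 250 bases before the start of Cyp3a13, at chr5:137921620-137921869 (minus strand), are shown because it is the member whose diets separated. They hold no TATAAA on either strand.
Cyp3a13: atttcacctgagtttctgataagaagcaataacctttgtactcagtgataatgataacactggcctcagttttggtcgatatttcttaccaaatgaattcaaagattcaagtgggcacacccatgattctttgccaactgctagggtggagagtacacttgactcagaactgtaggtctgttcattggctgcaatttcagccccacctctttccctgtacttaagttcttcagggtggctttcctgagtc

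**Figure D4:**
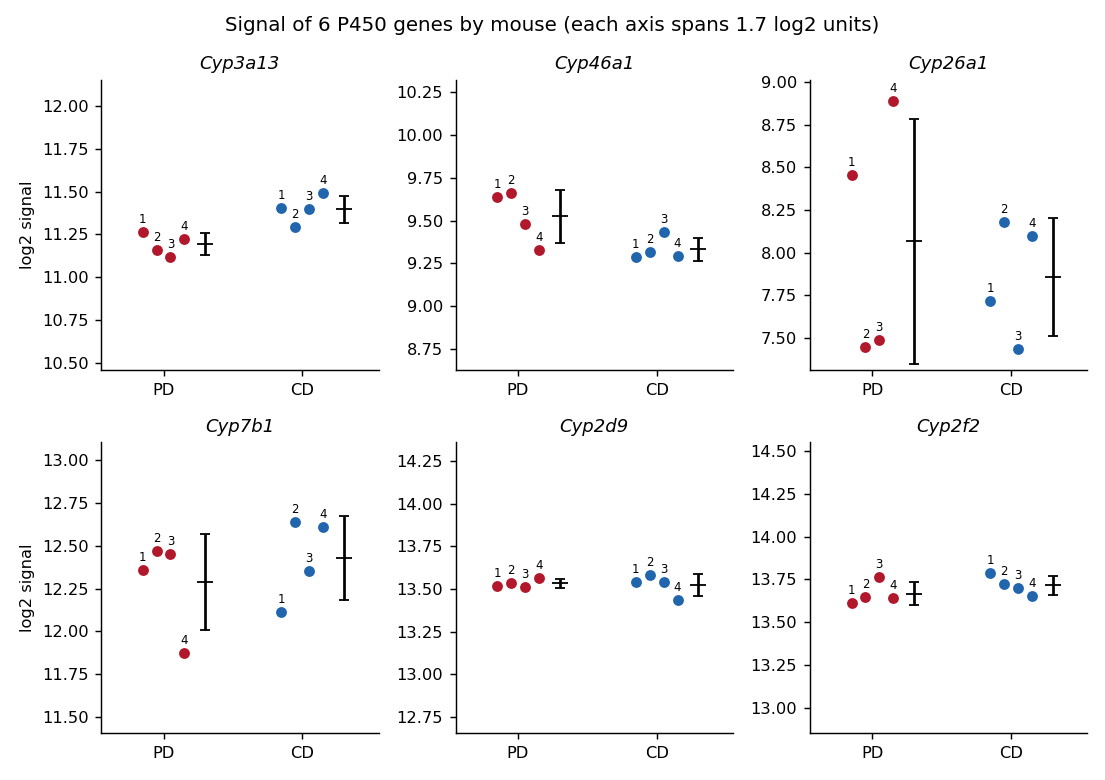
Log2 signal of 6 P450 genes in each PD mouse (left) and each CD mouse (right), numbered by replicate, with the mean and SD of the group (n = 4 each) beside the points. All panels span the same number of log2 units. Cyp3a13 does not overlap between the diets, Cyp26a1 and Cyp7b1 spread widely within both, and Cyp2d9 and Cyp2f2 stay within narrow ranges.

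Most measured genes of the fatty acid and eicosanoid oxidation list had slightly lower means in PD mice, and none of them passed a test. The values do not cover Cyp4a10, which was not measured by its own probe set, or Cyp4a14 and Cyp4a31, which the rule left out. Of 14 measured genes of this list, 2 were higher and 12 lower on average in PD mice, with a median of −0.04. Over all genes 53.5% were lower, with a median of −0.01, and 0 genes of the list were called in either direction. The list leaves out the Cyp2c epoxygenases, a subfamily with 5 genes higher and 6 lower. It also leaves out Cyp2j11 (0.04) and Cyp2j13 (−0.04), so the count depends on the choice of genes. With the arrays centred on their medians 3 were higher and 11 lower (median −0.03). The summed signals of the list overlapped, from 131.1 to 131.9 in PD mice and from 131.2 to 132.7 in CD mice. The signals of these genes are not independent of each other, and the count has no test. Cyp4a12a, an omega-hydroxylase of arachidonic acid in male mice, gave 12.64, 12.66, 12.69 and 12.79 in PD mice and 12.73, 12.79, 12.65 and 12.64 in CD mice (difference −0.01, standard error 0.05). Cyp4v3, the counterpart of human CYP4V2, averaged 12.89 ± 0.09 in PD mice and 12.93 ± 0.07 in CD mice (SD, n = 4 each), and its second probe set was lower too (−0.06).

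Among the Cyp4f genes, some of which inactivate leukotrienes or hydroxylate vitamin E, Cyp4f15 was the lowest by difference. It gave 10.99, 10.84, 10.99 and 10.95 in PD mice and 10.95, 11.11, 10.96 and 11.03 in CD mice (difference −0.07, standard error 0.05). The 2 diets overlap here. Cyp4f14 averaged 11.08 ± 0.11 in PD mice and 11.15 ± 0.13 in CD mice (−0.07, standard error 0.07), and Cyp4f13, the highest of the subfamily by difference, 8.89 ± 0.07 in PD mice and 8.82 ± 0.12 in CD mice (0.07, standard error 0.06). Cyp4f16 had the widest spread of the subfamily (SD 0.14). Cyp4x1, a brain enzyme singled out here for its low difference (−0.20, standard error 0.15), lay below the array median at 6.71, with PD 1 the lowest mouse and CD 1 the highest.

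The Cyp2j genes are epoxygenases of arachidonic acid in liver, kidney and heart. Cyp2j5, the bright member, gave 12.34, 12.32, 12.41 and 12.30 in PD mice and 12.31, 12.30, 12.36 and 12.45 in CD mice. Its difference of −0.01 (standard error 0.05) lay well within the range of either diet. Cyp2j9, a brain form, had the lowest difference (−0.10, standard error 0.08) and Cyp2j11 the highest (0.04, standard error 0.07), at signals of 7.59 and 6.93.

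The sterol, steroid and bile acid list had 9 measured members, 5 higher and 4 lower on average in PD mice (median 0.01), and 0 were called. Cyp7b1, the oxysterol hydroxylase of the alternative pathway of bile acid synthesis, gave 12.36, 12.47, 12.45 and 11.87 in PD mice and 12.11, 12.64, 12.35 and 12.61 in CD mice (difference −0.14, standard error 0.15). PD 4 was the lowest mouse and CD 2 and CD 4 were the highest. Without PD 4 the difference was −0.00, and the second bright probe set of the gene gave −0.16 over all mice. Cyp39a1, a hydroxylase in another branch of bile acid synthesis, lay at 6.48 ± 0.08 in PD mice and 6.43 ± 0.08 in CD mice (SD, n = 4 each), below the array median. So did Cyp17a1, the steroid hydroxylase and lyase of adrenal and gonad, at 6.98 ± 0.10 in PD mice and 6.90 ± 0.12 in CD mice.

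Cyp46a1, the cholesterol hydroxylase of neurons, was the second member under an unadjusted p of 0.05 by limma. It gave 9.64, 9.66, 9.48 and 9.33 in PD mice and 9.29, 9.32, 9.43 and 9.29 in CD mice, so that 3 PD mice lay above every CD mouse and PD 4 lay among them. The difference was 0.19 (standard error 0.07), with an exact permutation p = 0.0571 (two-sided) and an adjusted p of 0.998 by limma over all probe sets. Of the 8 measured members expressed mainly outside the liver, it was the 1 with a signal above the upper quartile.

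Members that handle vitamin D and retinoic acid had few bright signals. Of 5 measured genes, 4 were higher and 1 lower on average in PD mice (median 0.07), and 0 were called. Cyp26a1, the retinoic acid hydroxylase whose gene is induced by retinoic acid, gave 8.45, 7.45, 7.49 and 8.89 in PD mice and 7.72, 8.18, 7.44 and 8.10 in CD mice. PD 1 and PD 4 were high and PD 2 and PD 3 were low, and the CD mice lay between 7.44 and 8.18. The difference was 0.21 with a standard error of 0.30, the widest spread of the family, and it was −0.06 without PD 4. Cyp26b1, a second enzyme of this kind singled out after its values were seen, gave 7.79, 7.47, 7.54 and 7.86 in PD mice and 7.62, 7.67, 7.39 and 7.55 in CD mice, with PD 1 and PD 4 the highest mice again. Cyp2r1, the vitamin D hydroxylase of the liver, averaged 8.48 ± 0.08 in PD mice and 8.53 ± 0.09 in CD mice (SD, n = 4 each). Cyp24a1, which breaks down active vitamin D, lay below the array median at 6.90 ± 0.09 in PD mice and 6.89 ± 0.06 in CD mice.

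The lists of sex-biased genes stood at different signals in these males. All 5 measured genes of the male-biased list had signals above the upper quartile (8.43 to 13.69), and 0 of the 4 measured genes of the female-biased list did (5.85 to 7.82). On the PD diet 1 of the male-biased genes was higher and 4 were lower (median −0.05; 2 higher and 3 lower with the arrays centred), and 3 of the female-biased were higher and 1 lower (median 0.05), with 0 called in both. Cyp2f2, a male-biased enzyme that activates naphthalene, was the brightest member. It gave 13.61, 13.65, 13.76 and 13.64 in PD mice and 13.79, 13.72, 13.70 and 13.66 in CD mice (difference −0.05, standard error 0.05). Cyp1a1, the classic target of the aryl hydrocarbon receptor, lay at 6.90 ± 0.06 in PD mice and 6.91 ± 0.14 in CD mice (SD, n = 4 each), below the array median in both diets. Cyp2a12, a hydroxylase of steroids and bile acids chosen after its values were seen, had the lowest spread of all members (SD 0.04), at 12.75.

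For 14 members further probe sets could be compared, 18 in all. Of these, 11 had the same sign of the diet difference as the probe set used. Among the 6 where both were above the upper quartile, 5 had the same sign, and the largest gap between the 2 differences was 0.08 (Cyp2d22).

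The genes around the P450 enzymes were read from a list of electron donors, heme synthesis genes, receptors and transcription factors, of which 29 of 32 were measured. Of these, 15 were higher and 14 lower on average in PD mice (14 and 15 with quantile normalization), and the rank product called 1 in each direction. Over all probe sets it called 0.200% higher and 0.260% lower. Rarb, a retinoic acid receptor, was called higher (FDR 0.0566), with signals of 7.00, 7.01, 7.00 and 7.47 in PD mice and 6.60, 6.82, 6.68 and 6.97 in CD mice. All PD mice lay above all CD mice at a signal near the array median (difference 0.35, standard error 0.11, adjusted p = 0.998 by limma). Such a separation with PD higher was found for 1.12% of all genes. The call was lost without PD replicate 1 (0.40), 2 (0.39), 3 (0.40) or 4 (0.24) or CD replicate 1 (0.30). Alas1, the enzyme that starts heme synthesis, was called lower (FDR 0.0631), with 9.34, 11.74, 10.93 and 11.18 in PD mice and 11.10, 12.11, 10.71 and 11.20 in CD mice. Here 1 mouse, PD 1, lay far below the others, the standard error (0.45) was close to the difference (−0.48), and limma's adjusted p was 0.998. Without PD replicate 1 the difference was 0.00, and the call was lost without that mouse and without CD replicate 1 (−0.54), 2 (−0.21), 3 (−0.67) or 4 (−0.51). Cyb5a, the cytochrome b5 that hands electrons to P450 enzymes, averaged 13.72 ± 0.04 in PD mice and 13.71 ± 0.04 in CD mice (SD, n = 4 each). Of the receptors, Nr1i3 (CAR) had a difference of −0.23, Nr1i2 (PXR) −0.04 and Ppara 0.20, and Hnf4a had −0.11, none of them called.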

How the data were processed

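Liver RNA of 4 PD and 4 CD mice was measured on 8 arrays. The deposited values are log2 signals of the model-based expression index (R 2.7.2 is named in the submitters' processing notes), and the authors' scaling across arrays was not given in the sources used here. After removal of 64 control probe sets 45037 remained, 34945 with 1 gene symbol, 932 with several and 9160 with none. The number of arrays limits the precision.

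The rank product over 16 pairs with 1000 permutations (FDR under 0.1, the test of the methods) and limma 3.58.1 in R 4.3.3 (Benjamini-Hochberg adjusted p under 0.1) were run over all probe sets, with Python 3.11.15, numpy 2.4.6, pandas 2.3.3 and scipy 1.17.1, and tested on simulated data. Single values had a two-sided exact permutation test over 70 assignments. Promoters were aligned with Biopython 1.88. Members and lists were chosen with earlier results of these data known. By rule, the text names members called or without overlap, the extremes of each subfamily with 3 or more members (signal, difference, spread) and a fixed set, and other members named were chosen after their values were seen. Alternatives were an FDR under 0.05, 100 permutations, a replicate block, quantile normalization, centred arrays and adding 16 ahead of the log2. Others were leaving out dim probe sets or those for several transcripts, the mean over probe sets, and trend and robust variances. Student's t-test and leaving out each mouse were run too. Labels call the mice biological replicates. Deviations of same-numbered mice correlated between −0.06 and −0.00 across probe sets, and those of differently numbered mice between −0.19 and 0.16. Same-numbered mice were thus not more alike than others, which cannot exclude a pairing in the design.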

Additional observations from a re-analysis of the deposited data

Results flagged for a closer look

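Among the 29 members named by rule, 6 of 58 groups of 4 mice held 1 mouse far from the other 3 by Dixon's criterion. A rate of 1 in 20 would give about 2.9, but that rate holds only for genes picked without their values. Cyp3a44 and Cyp2d40 were named for the widest spread of their subfamily and Cyp2j11 for the highest difference. The groups also share mice, so the count is no test of an excess. Cyp3a44 was 7.53 in PD replicate 3, below the other PD mice (7.94 to 7.99). Cyp2d40 was 7.31 in PD replicate 1, below the others (7.47 to 7.49). Cyp1a1 was 6.82 in PD replicate 3, below the others (6.92 to 6.94). Cyp2j11 was 7.12 in PD replicate 3, above the other PD mice (6.88 to 6.91), and 7.05 in CD replicate 1, above the other CD mice (6.84 to 6.88). Cyp24a1 was 6.97 in CD replicate 4, above the others (6.85 to 6.86). All 5 genes had mean signals below the upper quartile of the probe sets, and their diet differences, between −0.01 and 0.05, did not pass a test. PD replicate 3 appears in 3 of the 6 groups.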

How the results depend on the processing

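Of 576 values recomputed under the alternatives for 47 results, 556 kept their direction and side of the threshold or moved by less than the spread, 20 moved, and 0 reversed. Members called by the rank product stayed at 0 in each direction in all settings, with 41 members left after the filter on dim probe sets and 56 without probe sets for several transcripts. limma called 0 members in each of its settings, and Student's t-test gave 1 at an unadjusted p under 0.05, against 4.05% of all genes. Probe sets called lower numbered 117, but 56 at an FDR under 0.05 and 66 with the filter on dim probe sets. Of the partner and regulator genes, 2 were called, 0 at an FDR under 0.05 and 1 with the replicate block (Alas1 lost, FDR 0.114). The replicate block changed no member's call (0 members in each direction) and gave 109 probe sets higher and 103 lower. With single mice left out, probe sets called higher ranged from 27 (without PD replicate 4) to 190 (without CD replicate 3) and those called lower from 16 (without CD replicate 1) to 207 (without PD replicate 1), the partner calls from 0 to 2, and the Cyp2d median difference from −0.0334 (without CD replicate 4) to 0.0116 (without CD replicate 1). The Cyp2c median ran from −0.0973 (without CD replicate 4) to 0.0368 (without CD replicate 1) and the Cyp3a median from −0.102 (without CD replicate 4) to −0.0014 (without CD replicate 2). The sign of the difference held in all 8 such runs for 28 members and turned at least once for 33. With 4 mice per diet and signals below 8 for 31 members, small changes of dim genes could not be seen, and no depth exists for arrays.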

Other observations

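Some members outside the naming rule were chosen for these values after they were seen. Cyp20a1, a P450 without a settled substrate, gave 8.58, 8.97, 8.63 and 8.47 in PD mice and 8.55, 8.49, 8.62 and 8.52 in CD mice, with PD replicate 2 the highest mouse. Its difference was 0.12 (standard error 0.09), and its dimmer probe sets gave 0.05 and 0.11. Cyp2u1, a hydroxylase of long-chain fatty acids, averaged 8.40 ± 0.07 in PD mice and 8.47 ± 0.10 in CD mice (SD, n = 4 each), a difference of −0.07, and its second, dimmer probe set gave −0.17. Cyp2c65, an intestinal enzyme, lay between 6.69 and 6.75 in PD mice and between 6.59 and 7.17 in CD mice, where CD replicate 4 was the highest. Cyp2c23 averaged 12.25 ± 0.17 in PD mice and 12.35 ± 0.14 in CD mice (SD, n = 4 each). Cyp11b1, an enzyme of adrenal steroid synthesis, averaged 6.66 ± 0.05 in PD mice and 6.74 ± 0.06 in CD mice (SD, n = 4 each), at a signal below the array median. Among the 43 pairs of bright genes of a subfamily, Cyp2d13 and Cyp2d26 correlated over the 8 mice at r = 0.83 (permutation p = 0.0067, adjusted p = 0.0956) and rho = 0.74 (permutation p = 0.0458, adjusted p = 0.497), with r = 0.68 without the 2 mice farthest from the median. Cyp2c39 and Cyp2c70 correlated at r = −0.74 (permutation p = 0.0359, adjusted p = 0.386) and rho = −0.62 (permutation p = 0.115, adjusted p = 0.497), with r = −0.46 without 2 mice.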
